A study of Mus musculus with 12 samples.

Results

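Ap3s1, Lrrc17, Rbmx, Rps15a-ps4 and BC018473 are 5 of the 24421 genes in a table of ribosome profiling counts from B16 cells, an established mouse melanoma line. They were chosen by a measured value: each had shown a change of ribosome footprints relative to total RNA between Elp3-depleted and control cells when cultures were paired by their replicate letter. Their RNA, footprint and ratio differences between the shRNAs are therefore given as a description, with no test. All 5 were found in the table, and all 5 passed the filter on low counts in both fractions.

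B16 cells grown in DMEM with serum were transduced with lentivirus for a non-relevant shRNA (shControl, labelled shCTL) or for 1 shRNA against Elp3 (shElp3, labelled sh309). The model thus rests on a single Elp3 shRNA and a single cell line. Total RNA and ribosome-protected fragments (footprints) were sequenced from 3 cultures per shRNA, lettered A, B and C, which gave 12 libraries in 4 groups of 3. In the labels each footprint library is linked to 1 RNA library, that of its own culture.

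A footprint is the stretch of mRNA that a ribosome shields from nuclease, so footprint reads divided by RNA reads estimate how many ribosomes a transcript carries. Elp3 is the catalytic subunit of Elongator, which starts the modification of the wobble uridine of certain tRNAs, and loss of that modification slows the reading of some codons that end in A. The 5 genes have no shared function. Ap3s1 encodes the sigma subunit of AP-3, the adaptor that sorts cargo such as tyrosinase towards melanosomes and lysosomes. Lrrc17 encodes a secreted leucine-rich repeat protein known as an inhibitor of RANKL-driven osteoclast formation. Rbmx encodes hnRNP G, a nuclear RNA-binding protein that takes part in splice site choice. Rps15a-ps4, also called Lethe, is a transcribed pseudogene of the small ribosomal subunit protein gene Rps15a and has been described as a noncoding RNA induced by inflammatory signals. BC018473 is annotated as a long noncoding RNA.

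The annotated transcription starts of Lrrc17 and Rbmx are shown with that of Rps15a, the parent of the pseudogene, because messages of ribosomal proteins are known to begin with a C followed by a run of pyrimidines, the 5′ TOP element, through which their translation is regulated. Each sequence is 30 bases from RefSeq (build GRCm38.p6), written 5′ to 3′ on the strand of the gene, with the start base in capitals. The positions are X:57393022-57393051 on the minus strand for Rbmx, chr5:21543512-21543541 on the plus strand for Lrrc17 and chr7:118116133-118116162 on the minus strand for Rps15a.
Rbmx: cttaatttccatccgGgttcttcagcctcg
Lrrc17: agctgtggccatgtaAtttaaaacctcagc
Rps15a: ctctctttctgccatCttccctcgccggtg
Rps15a began with a C that opened a run of 8 pyrimidines, counted from the start base on the gene's own strand. Of 32851 annotated starts, 823 (2.51%) began with a C in a run of at least 5 pyrimidines. The starts of Rbmx and Lrrc17 were a G and an A. The start base shown for Rbmx is X:57393036, while its annotated span reaches X:57393046 on that side. It is therefore not the outermost annotated start of Rbmx. These letters describe the annotated start only. RefSeq start sequences were matched for 2 of the 5 genes.

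Total counts ran from 7914369 to 16527864 in RNA libraries and from 7619269 to 10998570 in footprint libraries. Elp3 itself was lower in every shElp3 library than in any control library of its fraction, at 34.3 to 39.6 against 66.9 to 88.7 CPM (read counts scaled to a common library size) in RNA and at 50.7 to 62.4 against 101 to 122 CPM in footprints. Its log2 fold change was -1.08 (SE 0.22, edgeR adjusted p = 0.0831, and 0.000977 with the letters as a block) in RNA and -0.93 (SE 0.15, edgeR adjusted p = 0.0249) in footprints. Letter A stood apart in 3 of the 4 groups: the Spearman correlation across genes of A with B and C was 0.904 to 0.957 in RNA and 0.945 to 0.952 in control footprints, against 0.988 to 0.993 for B with C. Of the other cell types checked, summed fibroblast markers were 12.4 to 23.5 CPM in control RNA and 21.0 to 42.4 in shElp3 RNA, with Dcn and Fap at 0 in all libraries, and summed epithelial markers did not exceed 1.32 CPM. Summed macrophage and leukocyte markers were 7.36 to 21.3 CPM in control RNA and 6.12 to 11.6 in shElp3 RNA, and 25.0 to 82.5 against 15.2 to 34.5 CPM in footprints. Summed melanocyte markers were 8522 to 11580 CPM in control RNA and 5971 to 7405 in shElp3 RNA. Whether the letter or these marker levels had a part in the results below was not tested, and in bulk RNA fewer cells of a type and less RNA per cell cannot be told apart.

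Relative to RNA, footprints of Ap3s1, Lrrc17 and Rps15a-ps4 were higher in the shElp3 culture of every letter, those of Rbmx were lower in every letter, and those of BC018473 were higher in letters B and C and equal in letter A. On the log2 scale the mean change of the ratio over the 3 letters was 1.16 ± 0.36 (SD, n = 3) for Ap3s1, 2.0 ± 0.69 for Lrrc17, 1.04 ± 0.44 for Rps15a-ps4, 1.17 ± 1.08 for BC018473 and -1.67 ± 0.70 for Rbmx. The genes reached these ratios in different ways. Ap3s1 had less RNA and more footprints. Lrrc17 and Rps15a-ps4 had more footprints in every letter, with RNA that differed in sign between letters. BC018473 had more footprints in letters B and C and fewer in A, and Rbmx had less of both, with the larger difference in footprints.

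**Figure D1:**
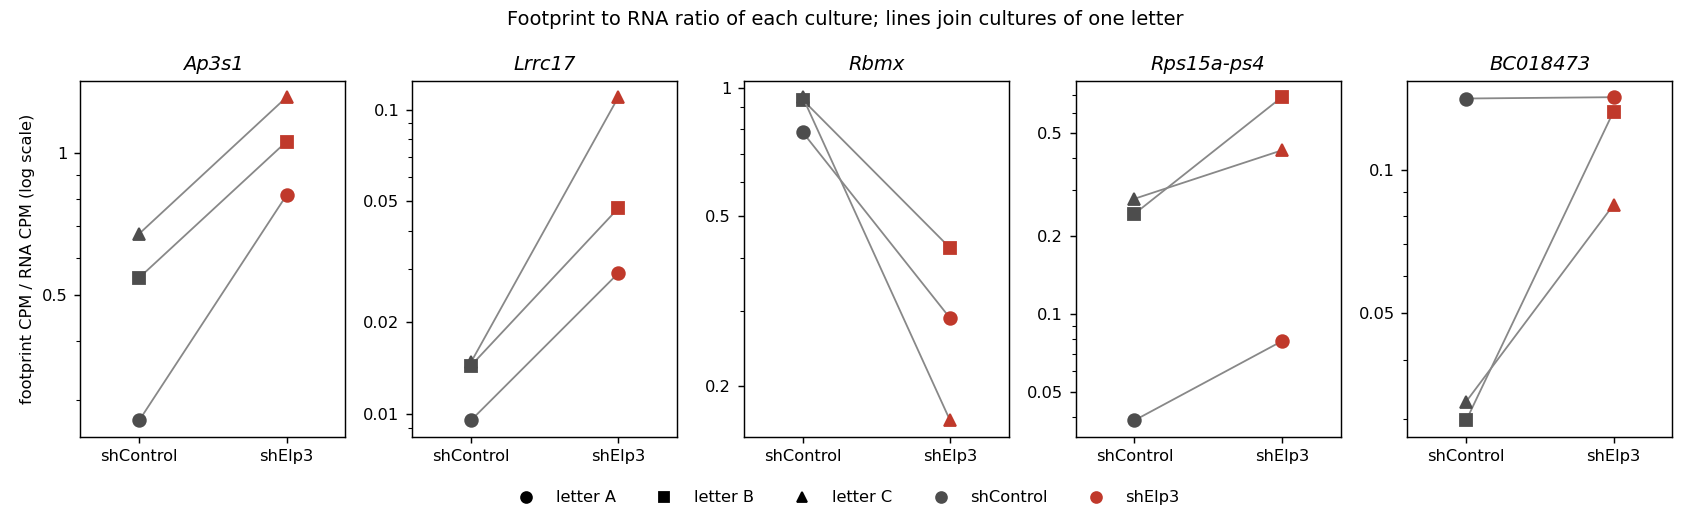
Footprint CPM divided by RNA CPM (log axis, no unit) in each of the 6 cultures, one panel per gene, with lines joining the shControl and shElp3 cultures of one letter. The lines rise in every letter for Ap3s1, Lrrc17 and Rps15a-ps4 and fall in every letter for Rbmx, while the letter A line of BC018473 is flat at 0.141 and 0.142.

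The fits across all genes set the scale for these values. With no term for letter or culture, edgeR called 0 of 11238 genes for a change of the ratio (0% of genes tested, with 62 at an unadjusted p under 0.05, and 0 called by DESeq2). With the culture and the letter both as blocks it called 8 genes, 5 higher and 3 lower (0.0712% of genes tested). Ap3s1, Lrrc17, Rbmx and Rps15a-ps4 are among these 8, which follows from how they were chosen and is no further evidence for them. By p-value in that fit Lrrc17 ranked 2, Rbmx 4, Ap3s1 6 and Rps15a-ps4 8, and BC018473 ranked 40 and lay outside the threshold. The last gene inside was Rps15a-ps4, at 1.04 (SE 0.18), and the first outside was Rpl37rt, at 1.89 (SE 0.34). A change of the ratio in BC018473 thus rests on letters B and C.

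**Figure D2:**
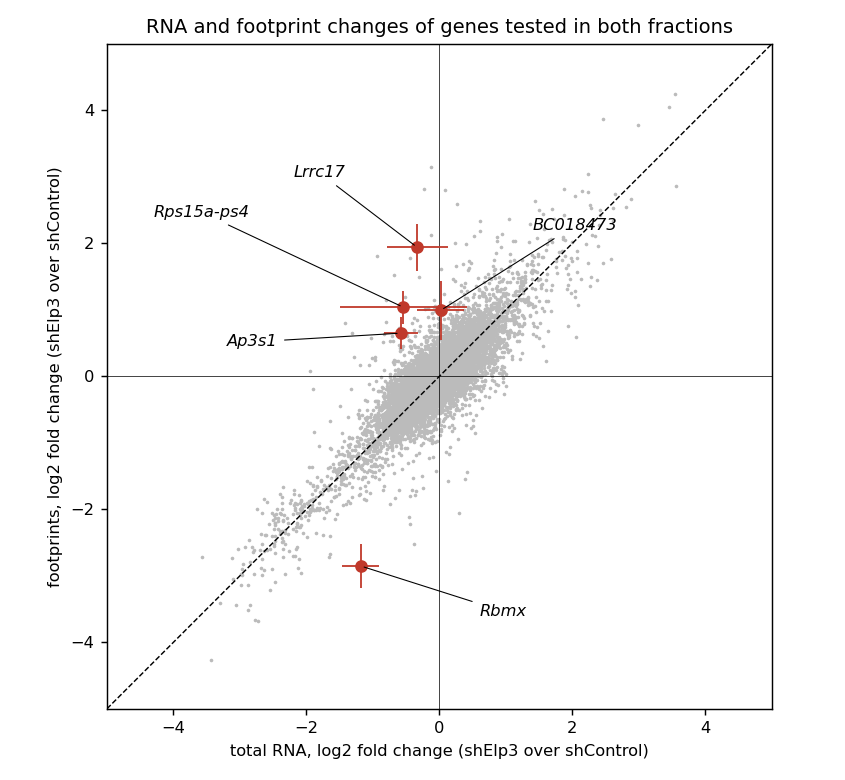
Log2 fold change (shElp3 over shControl) in total RNA on the x axis and in footprints on the y axis for the 11238 genes tested in both fractions (grey), with the 5 genes in red and bars of 1 SE from the edgeR fits. Points on the dashed diagonal changed equally in both fractions; Rbmx lies below it, and the other 4 lie above it.

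Rbmx had the lowest ratio change of the 5 genes, and its RNA and footprints were both lower in the shElp3 cultures. It spans X:57383348-57393046. Its RNA was 35.9, 59.6 and 49.7 CPM in control cultures A, B and C and 23.0, 17.2 and 24.8 CPM in shElp3 cultures A, B and C. Its footprints were 28.2, 55.9 and 47.3 CPM in the controls and 6.64, 7.23 and 4.11 CPM in the shElp3 cultures, from 189, 535 and 501 against 51, 68 and 37 counts. The 2 shRNAs did not overlap in either fraction: every shElp3 library was below every control library.

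Group means of Rbmx fell from 48.4 ± 11.9 to 21.7 ± 3.99 CPM in RNA (SD, n = 3) and from 43.8 ± 14.2 to 6.0 ± 1.66 CPM in footprints. The fitted log2 fold change was -1.18 (SE 0.27) in RNA, which is 44.1% of control, and -2.85 (SE 0.32) in footprints, 13.9% of control. The footprint to RNA ratio was 0.787, 0.938 and 0.951 in controls A, B and C and 0.288, 0.421 and 0.166 in the shElp3 cultures. Its log2 change was -1.42, -1.13 and -2.47 in letters A, B and C, and the fitted change was -1.71 (SE 0.43). For scale, edgeR called 1.14% of 12274 genes in RNA and 4.83% of 11343 genes in footprints.

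Groups that do not overlap were common in these data, at 20.0% of genes in RNA, 30.8% in footprints and 7.12% in the ratio. Non-overlap was seen in RNA for Ap3s1 and Rbmx, in footprints for all of the 5 genes but BC018473, and in the ratio for Ap3s1, Lrrc17 and Rbmx. Since these values chose the genes, the counts describe them and show nothing more.

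**Figure D3:**
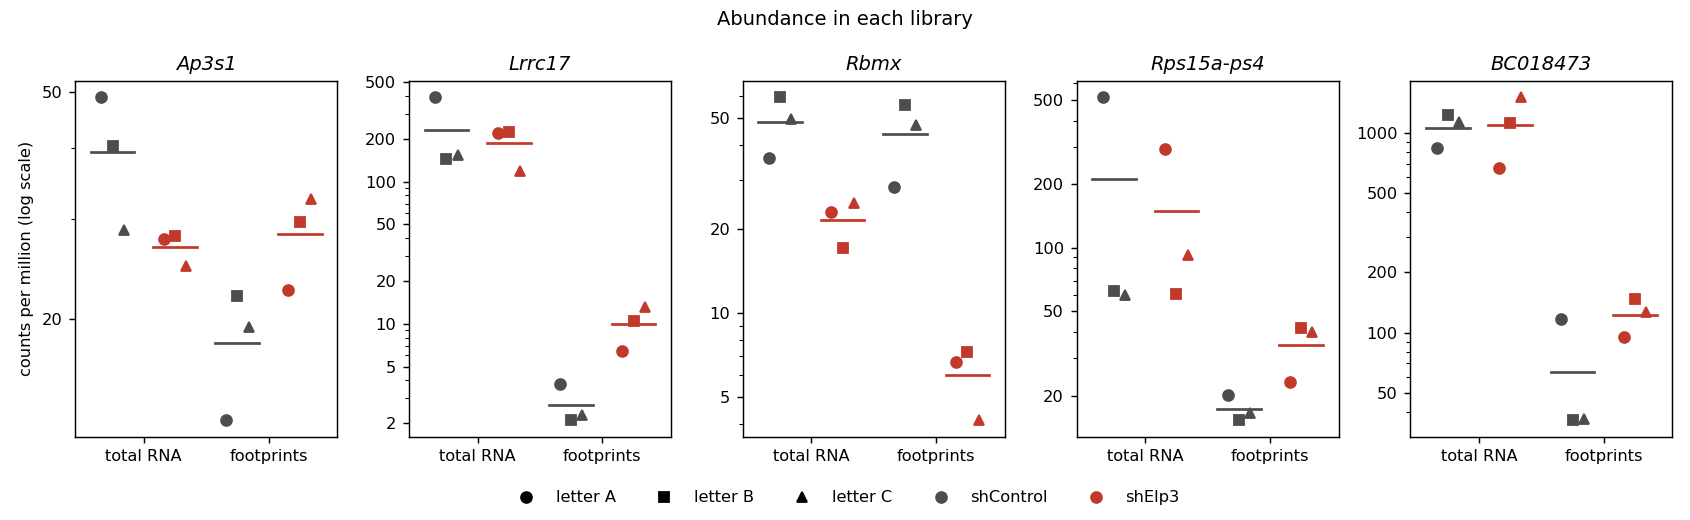
CPM (log axis) of each gene in the 12 libraries, with total RNA on the left and footprints on the right of each panel, one symbol per letter and a bar at the group mean. Footprints of Rbmx sit at 4.11 to 7.23 CPM in shElp3 cultures against 28.2 to 55.9 CPM in controls, and RNA of Rps15a-ps4 is highest in letter A under both shRNAs.

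Rbmxl1, a copy of Rbmx elsewhere in the genome that encodes a close relative of hnRNP G, did not pass the test in either fraction. Its RNA was 20.3, 42.2 and 42.1 CPM in controls A, B and C and 33.2, 34.7 and 31.0 CPM in the shElp3 cultures, and its footprints were 35.3, 109 and 106 against 66.8, 70.3 and 77.7 CPM. The shElp3 values of Rbmxl1 fell between those of control A and those of controls B and C in both fractions. Its log2 fold change was -0.11 (SE 0.31, edgeR adjusted p = 0.95) in RNA and -0.21 (SE 0.38, edgeR adjusted p = 0.784) in footprints, and its ratio changed by 0.21, -0.35 and -0.00 in the 3 letters. The difference between Rbmx and Rbmxl1 was not tested, and reads that match both genes could be split between them. Rbmx also holds the small nucleolar RNA gene Snord61, which had 10 to 56 counts in RNA libraries and 0 in every footprint library except control A, with 15.

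The RBMX list holds the RBMX family, its TRA2 and cold-inducible relatives, and also Khdrbs1 and Safb, which belong to neither. Among its 8 tested genes, Rbmx left out, 0 were called in RNA (5 at an unadjusted p under 0.05), and 1 rose and 2 fell in footprints. Tra2a, a splicing activator of the TRA2 family, fell by 1.52 on the log2 scale in footprints (SE 0.21, edgeR adjusted p = 0.0197). Rbmx2, which encodes a component of the spliceosome, fell by 0.96 (SE 0.21, edgeR adjusted p = 0.0426), and Cirbp, a cold-inducible RNA-binding protein, rose by 0.70 (SE 0.13, edgeR adjusted p = 0.0349). With the letters as a block, Rbm3, Tra2a, Rbmx2 and Khdrbs1 fell and Cirbp rose in RNA, 5 of the 8, where 12.2% of all genes were called. The median log2 fold change of the 8 was -0.40 in RNA and -0.62 in footprints, against -0.02 and -0.01 over all genes tested.

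Of 25 hnRNP genes, 0 were called in RNA (6 at an unadjusted p under 0.05), although all had a log2 fold change below 0, with a median of -0.50. In footprints 3 fell: Hnrnpa2b1 by 1.01 (edgeR adjusted p = 0.0417), Hnrnph1 by 0.76 (0.0275) and Pcbp1, a poly(C)-binding protein, by 0.52 (0.0491). With the letters as a block 5 of the 25 fell in RNA (Hnrnpa2b1, Hnrnph1, Pcbp1, Syncrip and Hnrnpdl), and in letters B and C alone 14 fell in RNA and 16 in footprints. Over all genes tested 6.75% fell in RNA with the block, and in letters B and C 10.5% fell in RNA and 12.2% in footprints. Of 10 SR splicing factors, 0 were called in RNA (3 at an unadjusted p under 0.05), and Srsf7 fell in footprints by 1.25 (SE 0.23, edgeR adjusted p = 0.033). With the letters as a block, 2 of the 10 SR genes fell in RNA, Srsf7 and Srsf2, against the same 6.75% of all genes. In letters B and C alone 4 of the 10 SR genes fell in RNA and 6 in footprints. Of the 8 genes of the RBMX list, 4 fell in RNA and 7 in footprints there, and 1 rose in each. The shares of all genes in that setting are the same 10.5% and 12.2%. In the ratio 0 genes of these 3 lists were called. At an unadjusted p under 0.05 the RBMX, hnRNP and SR lists had 3 of 8, 1 of 25 and 2 of 10 genes with both blocks, where 8.81% of all genes had such a p, and 0 each without the blocks.

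The footprint calls of these related genes depended on 5 of the 6 footprint libraries. With any one of the shElp3 footprint libraries A, B or C left out, edgeR called 0 genes of the whole table in footprints, and Tra2a had an adjusted p of 0.121, 0.132 and 0.087. Without control library B 0 genes of the 3 lists were called, and without control library C only Tra2a was (adjusted p = 0.0311). Without control footprint library A, the same test called 2856 genes, and Tra2a had an adjusted p of 0.000539.

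Ap3s1 was the only one of the 5 genes with RNA and footprints on opposite sides of 0 in every letter. The gene lies at chr18:46741694-46790826, and one end of it overlaps Atg12. Its RNA was 49.0, 40.3 and 28.7 CPM in controls A, B and C and 27.6, 28.0 and 24.8 CPM in the shElp3 cultures. Its footprints were 13.3, 21.9 and 19.4 CPM in the controls and 22.5, 29.7 and 32.6 CPM in the shElp3 cultures. The shElp3 RNA values were all below the controls and the shElp3 footprint values all above them, by small margins: 28.0 against 28.7 CPM in RNA and 22.5 against 21.9 CPM in footprints.

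The group means of Ap3s1 were 39.3 ± 10.2 and 26.8 ± 1.78 CPM in RNA (SD, n = 3) and 18.2 ± 4.43 and 28.2 ± 5.16 CPM in footprints. The fitted log2 fold change was -0.58 (SE 0.26) in RNA and 0.65 (SE 0.24) in footprints, and 0.46 without control footprint library A. The footprint to RNA ratio was 0.272, 0.545 and 0.675 in controls A, B and C and 0.815, 1.06 and 1.31 in the shElp3 cultures. The log2 change of the ratio was 1.57, 0.95 and 0.95 in letters A, B and C, and the fitted change was 1.18 (SE 0.36). RNA of the overlapping gene Atg12, an autophagy conjugation protein, had a log2 difference of -0.81 (SE 0.34, edgeR adjusted p = 0.38) and its footprints one of -0.07 (SE 0.26, edgeR adjusted p = 0.888).

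No other subunit of AP-3 was called with all libraries and no block. Of the 6 tested, 0 passed in RNA (1 at an unadjusted p under 0.05), 0 in footprints (1) and 0 in the ratio (0, also with the blocks). Ap3b2, the beta subunit of the neuronal form of the complex, had a log2 difference of 1.70 (SE 0.51, edgeR adjusted p = 0.21) in RNA and 2.02 (SE 0.65, edgeR adjusted p = 0.119) in footprints, and was the 1 subunit called higher in RNA with the letters as a block. Ap3s2, the second sigma subunit, had 0.16 (SE 0.14, edgeR adjusted p = 0.516) in footprints. The medians of the 6 were -0.08 in RNA and 0.05 in footprints, against -0.02 and -0.01 over all genes tested. In letters B and C alone 0 of 5 were called in RNA. In footprints 1 of 6 fell there and 0 rose, where 12.2% of all genes fell.

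The sigma subunits of the other adaptor complexes also gave 0 calls of 6 in RNA, in footprints and in the ratio (1, 1 and 0 at an unadjusted p under 0.05). Ap1s2, a sigma subunit of AP-1, had a footprint log2 difference of 0.52 (SE 0.14, edgeR adjusted p = 0.0858). Among 31 partners and cargo of AP-3 in melanosome and lysosome sorting, 0 were called in RNA (0 at an unadjusted p under 0.05), 0 in footprints (4) and 0 in the ratio (0). With the letters as a block 1 of them rose in RNA, Agap1, an Arf GTPase-activating protein that binds AP-3, by 0.72 on the log2 scale (edgeR adjusted p = 0.0387). Snapin, a subunit of BLOC-1 and its relative BORC, had 0.55 (SE 0.17, edgeR adjusted p = 0.108) in footprints. Tyr, the tyrosinase gene, had -0.52 (SE 0.23, edgeR adjusted p = 0.423) in RNA. In the ratio with both blocks Agap1 had -0.81 (SE 0.15, edgeR adjusted p = 0.0559). In letters B and C alone 1 of the 6 sigma subunits rose in footprints and 0 were called in RNA. Of the 31 partners and cargo, 1 rose and 2 fell in RNA there. In footprints 4 of the 31 rose and 3 fell. Over all genes in that setting 10.5% fell in RNA and 12.2% in footprints, and 1090 of 12281 and 1076 of 11440 rose.

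Lrrc17 had the largest rise of the ratio among the 5 genes, and its footprints were few relative to its RNA in every culture. It lies at chr5:21543527-21575911 inside the span of Fbxl13, which had at most 2 counts in any library. Its RNA was 393, 145 and 154 CPM in controls A, B and C and 220, 222 and 119 CPM in the shElp3 cultures, and these ranges overlap. Its footprints were 3.74, 2.09 and 2.26 CPM in the controls and 6.38, 10.5 and 13.1 CPM in the shElp3 cultures, from 25, 20 and 24 against 49, 99 and 118 counts. Every shElp3 footprint library was above every control library.

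Footprints of Lrrc17 averaged 2.70 ± 0.90 CPM in controls and 10.0 ± 3.40 CPM in shElp3 cultures (SD, n = 3), a fitted log2 fold change of 1.94 (SE 0.36). RNA averaged 230.6 ± 140.7 and 187.3 ± 58.8 CPM, with a fitted log2 fold change of -0.33 (SE 0.46) that turned to 0.30 without control RNA library A and to 0.16 in letters B and C alone. The footprint to RNA ratio was 0.00951, 0.0144 and 0.0148 in controls A, B and C and 0.0290, 0.0474 and 0.110 in the shElp3 cultures. Its log2 change was 1.58, 1.62 and 2.80 in the 3 letters, and the fitted change was 2.22 (SE 0.62). Even the highest of these ratios was lower than that of Rbmx in any culture.

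Among the secreted and cell-surface leucine-rich repeat genes, Lrrc17 left out, 17 of 39 could be tested in RNA and 15 in footprints. Lgi4, a secreted protein of glia, rose in RNA by 2.23 on the log2 scale (SE 0.32, edgeR adjusted p = 0.0249), and Lrrc15, a membrane protein of stromal cells, rose in footprints by 2.72 (SE 0.36, edgeR adjusted p = 0.0163). Left out one at a time, the 5 RNA libraries other than control A each took the adjusted p of Lgi4 to between 0.0862 and 0.166, and the 3 shElp3 footprint libraries that of Lrrc15 to between 0.0869 and 0.117. Without control footprint library B that of Lrrc15 was 0.0657. With the letters as a block 3 of the 17 rose in RNA (Lgi4, Lrrc15 and Chadl), where 5.46% of all genes rose. In letters B and C alone 3 of 17 rose in RNA and 6 of 15 in footprints, and 0 fell. Over all genes tested there, 1090 of 12281 rose in RNA and 1076 of 11440 in footprints. The medians were 0.39 in RNA and 0.52 in footprints, against -0.02 and -0.01 over all genes tested. In the ratio 0 of 15 were called, with a median of -0.27 (0 at an unadjusted p under 0.05, and 1 with both blocks). Of the RANKL pathway only 4 genes could be tested, and 0 were called in RNA, footprints or the ratio (0 at an unadjusted p under 0.05 in each). Traf6, the adaptor of the RANKL receptor, had 0.19 (SE 0.24, edgeR adjusted p = 0.683) in footprints.

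RNA of Rps15a-ps4 was several times higher in letter A than in B and C under both shRNAs, and its footprints were higher in every shElp3 culture. It lies at chr4:132219893-132220589, 436 bases from Gmeb1. Its RNA was 516, 62.6 and 59.6 CPM in controls A, B and C and 294, 60.6 and 92.8 CPM in the shElp3 cultures. Its footprints were 20.0, 15.3 and 16.6 CPM in the controls and 23.1, 41.7 and 39.8 CPM in the shElp3 cultures. In RNA the letter A libraries were the highest under both shRNAs and the shRNAs overlapped, whereas in footprints all shElp3 libraries were above all controls.

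The group means of Rps15a-ps4 were 212.7 ± 262.6 and 149.0 ± 126.3 CPM in RNA (SD, n = 3) and 17.3 ± 2.46 and 34.8 ± 10.2 CPM in footprints. The fitted log2 fold change was -0.54 (SE 0.96) in RNA and 1.04 (SE 0.25) in footprints. The footprint to RNA ratio was 0.0388, 0.244 and 0.279 in controls A, B and C and 0.0785, 0.688 and 0.429 in the shElp3 cultures. Its log2 change was 1.01, 1.49 and 0.61 in the 3 letters. The fitted change was 1.53 (SE 1.09) without blocks and 1.04 (SE 0.18) with culture and letter as blocks, and it was 1.04 in letters B and C alone. Leaving out control RNA library A turned the RNA fold change to 1.27 and the unblocked ratio change to -0.27.

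The parent gene and a second pseudogene were measured beside it. Rps15a, which encodes a protein of the small ribosomal subunit, had RNA of 847, 372 and 302 CPM in controls A, B and C and 616, 343 and 385 CPM in the shElp3 cultures, and footprints of 175, 177 and 149 against 159, 152 and 124 CPM. Its log2 fold change in footprints was -0.18, and its ratio changed by 0.33, -0.10 and -0.62 in the 3 letters. Rps15a-ps6 had RNA of 277, 77.0 and 70.7 CPM in controls and 82.1, 113 and 45.6 CPM in shElp3 cultures, and footprints of 18.5, 6.48 and 5.0 against 6.51, 11.8 and 7.33 CPM. Footprints of Rps15a-ps6 differed by -1.48, 0.85 and 0.54 on the log2 scale in letters A, B and C, and its ratio was higher in the shElp3 culture of every letter, by 0.27, 0.30 and 1.17. The fitted ratio change of Rps15a-ps6 was 0.56 with both blocks (SE 0.21, edgeR adjusted p = 0.479). Letter A RNA was the highest of the controls for all 3 genes. RefSeq lists 8 copies of Rps15a, of which these 2 are in the table, and reads that match several copies may have been assigned to any of them.

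**Figure D4:**
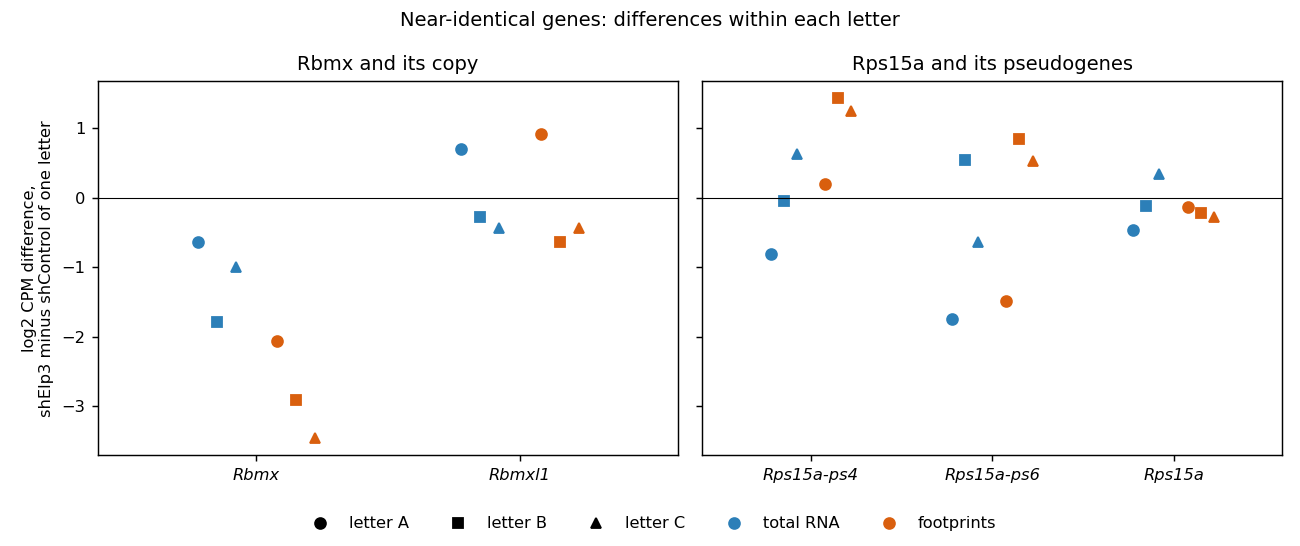
Difference of log2 CPM, shElp3 minus shControl of one letter, for Rbmx and Rbmxl1 (left) and for Rps15a-ps4, Rps15a-ps6 and Rps15a (right), with total RNA in blue and footprints in orange. Footprints of Rbmx lie between -3.47 and -2.06 while those of Rbmxl1 lie on both sides of 0, and footprints of Rps15a-ps4 lie between 0.20 and 1.44 while those of Rps15a lie just below 0.

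Of 34 genes for small ribosomal subunit proteins, 0 were called in RNA (0 at an unadjusted p under 0.05), and of the 33 tested in footprints 0 were called (3), with 0 in the ratio (0). Their median log2 fold change was -0.29 in RNA, 0.05 in footprints and 0.31 in the ratio, against -0.02, -0.01 and -0.03 over all genes tested. The RNA direction rests on control RNA library A: 0 of the 34 were above 0 with all libraries, 32 were above 0 without that library, and 19 in letters B and C alone. With both blocks the ratio median was 0.17. Rps27a, which encodes a ubiquitin fusion, had 0.41 in footprints (SE 0.12, edgeR adjusted p = 0.103), and Rps29 had -0.52 (SE 0.14, edgeR adjusted p = 0.0739).

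BC018473 had more footprints in the shElp3 culture in letters B and C and fewer in letter A. It lies at chr11:116752167-116757883, and St6galnac1, its nearest coding neighbour at 7142 bases, had at most 3 counts in any library. Its RNA was 832, 1218 and 1129 CPM in controls A, B and C and 669, 1111 and 1503 CPM in the shElp3 cultures. Its footprints were 118, 36.4 and 36.9 CPM in the controls and 94.95, 147 and 127 CPM in the shElp3 cultures. The groups overlapped in RNA, in footprints and in the ratio, and control A was the control library that lay among the shElp3 values.

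The group means of BC018473 were 1060 ± 201.9 and 1094 ± 417 CPM in RNA (SD, n = 3) and 63.6 ± 46.7 and 123 ± 26.4 CPM in footprints. The fitted log2 fold change was 0.02 (SE 0.36) in RNA and 0.99 (SE 0.45) in footprints. The footprint to RNA ratio was 0.141, 0.0299 and 0.0327 in controls A, B and C and 0.142, 0.132 and 0.0845 in the shElp3 cultures. Its log2 change was 0.01, 2.14 and 1.36 in the 3 letters, and the fitted change was 0.91 (SE 0.62). In letters B and C alone the footprint change was 1.92 and the ratio change 1.77.

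The small nucleolar RNA host genes listed here were picked as mostly noncoding transcripts of a class with 5′ TOP starts that can carry ribosomes. The list does not stand for all such host genes. They gave 0 calls of 17 in RNA (0 at an unadjusted p under 0.05). Of 16 tested in footprints, 2410006H16Rik rose by 0.99 on the log2 scale (SE 0.19, edgeR adjusted p = 0.036), a call lost without any one of the footprint libraries except control A. In the ratio 0 of 16 were called (0 at an unadjusted p under 0.05, and 4 with both blocks), with Snhg1 at 0.90 (SE 0.24) and Gas5 at -0.79 (SE 0.23) in the blocked fit. With the letters as a block 1 of the 17 fell in RNA, Taf1d, a protein-coding host gene, where 6.75% of all genes fell.

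The mean of footprints over RNA across both shRNAs is another contrast than the one that chose the genes, though it uses the same libraries, and it was tested. All 5 genes were lower in footprints than in RNA by edgeR, where 55.5% of 11238 genes were called and 30.3% were called lower. Lrrc17 was at -5.33 (SE 0.35, adjusted p = 4.55e-07), which is 40.2 times lower, and only 11 of the 11238 genes were lower. BC018473 was at -3.61 (SE 0.34, edgeR adjusted p = 5.02e-06), with 35 genes lower, and Rps15a-ps4 at -2.86 (SE 0.58, edgeR adjusted p = 0.00127), with 111 genes lower. That mean of Rps15a-ps4 joins letter A ratios of 0.0388 and 0.0785 with letter B and C ratios of 0.244 to 0.688. Under other settings it was -3.08 to -1.39, so its rank depends on the setting. Rbmx was at -0.998 (SE 0.22, edgeR adjusted p = 0.00205), with 17.6% of genes lower. That mean of Rbmx includes the low shElp3 ratios that chose it, and its control ratios were 0.787 to 0.951. Ap3s1 was at -0.52 (SE 0.18, edgeR adjusted p = 0.0263), with 31.8% of genes lower, and this call did not hold in letters B and C alone (-0.21, edgeR adjusted p = 0.142). That mean of Ap3s1 joins control ratios of 0.272 to 0.675 with shElp3 ratios of 0.815 to 1.31.

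Noncoding and pseudogene classes were low as groups on the same measure. The median was -0.03 over 10485 protein-coding genes, -1.25 over 153 long noncoding RNAs and -1.72 over 31 pseudogenes. Of the 153 long noncoding RNAs 6 were below BC018473, and of the 31 pseudogenes 9 were below Rps15a-ps4 at its value of -2.86. Lrrc17 is annotated as protein coding and lay below both. Rps15a, at -1.62 (edgeR adjusted p = 0.00021), was also lower in footprints, as were 25 of 33 small-subunit genes (0 higher, median -1.0) and 14 of 16 genes of the snoRNA host list (0 higher, median -1.58). Rps15a-ps6 was at -3.53 (edgeR adjusted p = 5.13e-05).

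Coding relatives of the other genes are given against 25.2% of all genes called higher. Rbmxl1 was at 1.19 (edgeR adjusted p = 0.00253), 14 of 25 hnRNP genes were higher and 4 lower, and 2 of the 6 other AP-3 subunits were higher, Ap3m1 at 0.70 and Ap3b1 at 0.48, with 0 lower and a median of 0.03 over the 6. With culture and letter as blocks the same 2 were higher, and Ap3d1, at -0.54, and Ap3s2, at -0.25, were lower (edgeR adjusted p = 4.83e-05 and 0.00554). Among the leucine-rich repeat genes 7 of 15 were higher and 2 lower, with a median of 0.51. Prelp, a matrix proteoglycan, was at 1.83 (SE 0.37, edgeR adjusted p = 0.0012).

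**Figure D5:**
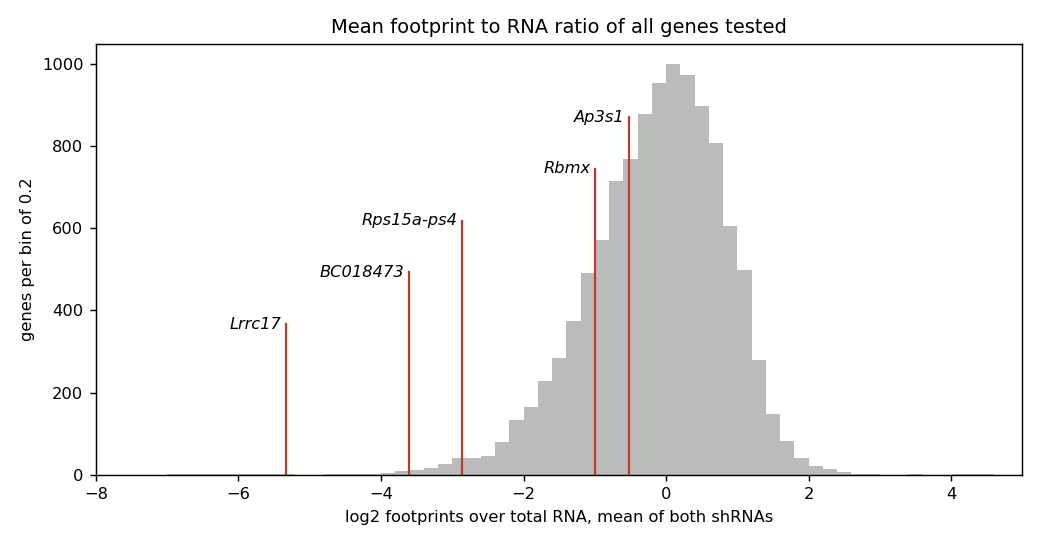
Histogram of log2 footprints over total RNA, averaged over both shRNAs, for the 11238 genes tested (x axis, log2 units; y axis, genes per bin), with a red line at each of the 5 genes. Lrrc17 at -5.33, BC018473 at -3.61 and Rps15a-ps4 at -2.86 lie in the left tail, while Rbmx at -0.998 and Ap3s1 at -0.52 lie within the bulk. The value of Rps15a-ps4 was -3.08 to -1.39 under other settings.

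Genes with the most similar pattern were found by the Pearson correlation of log2 CPM, centred within each fraction, over the 12 libraries and against 11237 other genes. Letters and shRNAs are shared by all genes in this measure, so it is given with no p. For Rbmx they were Gprasp1 (r = 0.972), Hist1h2be (0.946) and Pcbp4 (0.938). For Lrrc17 they were Gstm7 (0.935), Bc1 (0.933) and Gad2 (0.905). For Ap3s1 they were Chn1 (0.854), Eif2ak2 (0.839) and Fbxo45 (0.825). For Rps15a-ps4, whose pattern is led by the letter A RNA values, they included Dhx40 (0.979) and Slc25a17 (0.968), and for BC018473 Slc26a2 (0.910), Rb1 (0.907) and Acpp (0.903). Among the 5 genes themselves the strongest correlations were -0.81 for Lrrc17 with Rbmx and 0.70 for Lrrc17 with Rps15a-ps4. The weakest was 0.03, for Rps15a-ps4 with BC018473. The genes were chosen by differences between these same libraries, so these values describe them and show nothing more.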

How the data were processed

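Libraries of total RNA and of ribosome-protected fragments were made with Illumina's TruSeq Ribo Profile kit, per the labels. The authors deposited raw counts, whole numbers of reads per gene, in 1 table of 12 libraries. The submitters' processing notes name bcl2fastq, Bowtie, TopHat2 (2.1.1) together with HTSeq, and the mm10 build. Not given in the sources used here are the annotation, the strand setting, how ribosomal RNA was removed and the region over which footprints were counted, so reads of overlapping, antisense or near-identical genes may be mixed. The table had 0 rows without a gene name.

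Groups came from the labels. Nothing says that the cultures were separate transductions, so p-values measure only the spread between these cultures. In blocked fits the letter or culture terms first take up part of that spread. Their p-values rest on what is left in the same few libraries. Genes were kept by filterByExpr (minimum count 10) in a fraction, and in both fractions for ratios, which left 12274 genes in RNA, 11343 in footprints and 11238 in both. Libraries were scaled by TMM. Differences were tested by the quasi-likelihood F-test of edgeR 4.0.16 in R 4.3.3, with p-values adjusted by Benjamini-Hochberg across every gene of a fit and called at 0.05. The ratio change is the interaction of fraction and shRNA over 12 libraries. An SE is the log2 fold change divided by the root of F. CPM were scaled by TMM over the 12 libraries, and differences per letter used log2 CPM with a prior count of 2. Alternatives were DESeq2 1.42.0, RLE size factors, no count filter, blocks, letters B and C alone and each library left out. Counts of related lists under the blocks, in letters B and C and without each library were added after seeing the data.

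The 5 genes and the related lists were chosen with earlier results of these data known. Named genes were the 5, Elp3, up to 3 genes of each list by smallest p in the comparison described, the copies and neighbours of the 5 and the 3 most similar genes of each. Of the most similar genes, 1 is not reported here. Genes named as called with a block or in letters B and C were singled out after their values were seen.

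The labels do not say what a shared letter means. Across genes, deviations from the group means were compared between shControl and shElp3 libraries. For the same letter r was 0.825 (A), 0.479 (B) and 0.636 (C) in RNA and 0.763, 0.460 and 0.487 in the ratio. All were over 0.1, so blocked RNA and ratio values are given where they change a call. Control B with shElp3 C had 0.737 in RNA and 0.513 in the ratio, and control C with shElp3 B had 0.614 and 0.582. Pairs of A with another letter had -0.779 to -0.568 in RNA and the ratio. These values set A apart, and the match of B with B and C with C is an assumption of the letter block. In footprints r for the same letter was 0.342, -0.097 and 0.247, and the letters were not taken to pair those libraries. Between RNA and footprints of one culture r was 0.474, 0.493 and 0.398 in controls A, B and C. In shElp3 cultures A, B and C it was 0.162, 0.097 and 0.394. No libraries of one group were alike within sampling noise (chi-square per degree of freedom at least 8.25).

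The fits named in this paragraph were tested on simulated counts in which known genes were moved 2-fold or 4-fold. Other fits were not simulated. Among these were RNA with the letters as a block, footprints against RNA with blocks, letters B and C alone and DESeq2. In RNA 4% and 75% were recovered (12141 genes, 3 false of 82 calls), in footprints 49% and 98% (11249 genes, 11 of 158), in the unblocked ratio 2% and 43% (11200 genes, 0 of 45), in the ratio with both blocks 90% and 100% (11123 genes, 16 of 206), and in footprints against RNA 77% and 100% (11193 genes, 9 of 186). For the ratio with both blocks, counts were drawn from that fitted model itself. Its recovery therefore takes the culture and letter terms as right and does not test them. Total counts per library were 7619269 to 16527864.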

Additional observations from a re-analysis of the deposited data

Results flagged for a closer look

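Ap3s1 had effects of opposite direction in the 2 fractions: in every letter its RNA was lower in the shElp3 culture (mean log2 difference -0.52 ± 0.31, SD, n = 3 letters) and its footprints were higher (mean 0.64 ± 0.18). By letter A, B and C the RNA differences were -0.82, -0.52 and -0.21 and the footprint differences 0.75, 0.43 and 0.75. The difference between the fractions was not tested, since a change of the ratio chose this gene.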

How the results depend on the processing

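Of 300 values of the 5 genes under other settings, 283 kept their call or moved by less than the SD of the 3 letter differences. Small moves that changed sign are among the 283. The RNA fold change of BC018473 kept its sign in 5 of 11 settings (-0.26 to 0.27), and that of Lrrc17 in 9 of 11. Rps15a-ps4 accounted for most of the values outside the 283. Its RNA log2 fold change was 0.31 in letters B and C alone and -1.52 to 1.27 with single libraries left out, with the highest value without control RNA library A. Its ratio change was 1.07 with the replicate block, 1.05 with the culture block, 1.04 with both blocks, 1.04 in letters B and C, and -0.27 to 2.56 with single libraries left out. The footprint change of Ap3s1 was 0.46 to 0.80 with single libraries left out. The mean of footprints over RNA of Ap3s1 was -0.46 with no count filter (adjusted p = 0.0679), -0.21 in letters B and C (0.142), and -0.59 to -0.42 with single libraries left out. It lost its call without shElp3 RNA library A or B, control footprint library A or shElp3 footprint library A, and over all settings its edgeR or DESeq2 adjusted p was 9.3e-05 to 0.142. The other 4 genes kept that call in all 19 settings. The 140 genes called in RNA became 652 by DESeq2, 1499 with the replicate block, 2377 in letters B and C and 0 to 540 with single libraries left out. The 548 genes called in footprints became 1308 by DESeq2, 666 with the replicate block, 2477 in letters B and C and 0 to 2856 with single libraries left out. The 0 genes called in the ratio became 8 with culture and replicate blocks and 2 in letters B and C, BC018473 and Bc1. The cause of these shifts was not tested. Depth limits Lrrc17 most: its control footprints rest on 20 to 25 counts per library.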

Other observations

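Besides Ap3s1, Lrrc17, Rbmx and Rps15a-ps4, 4 genes passed the ratio test with culture and letter as blocks, and they were picked out after their values were seen. Bc1, a short noncoding RNA known from neuronal dendrites, rose in the ratio by a log2 value of 2.26 (SE 0.16, edgeR adjusted p = 3.28e-06), from ratios of 0.139, 0.286 and 0.392 in controls A, B and C to 0.526, 1.57 and 2.09 in shElp3 cultures. Zfp575, a zinc finger gene, rose by 1.58 (SE 0.19, edgeR adjusted p = 0.00143), from 0.0592, 0.0680 and 0.0802 to 0.210, 0.197 and 0.218. Hist1h4d, a replication-dependent histone gene whose message lacks a poly(A) tail, fell by 1.06 (SE 0.16, edgeR adjusted p = 0.0129), from 2.12, 2.98 and 1.89 to 0.824, 1.35 and 1.19. Ncapd3, a subunit of condensin II, fell by 1.07 (SE 0.18, edgeR adjusted p = 0.0251), from 0.795, 1.59 and 1.43 to 0.493, 0.744 and 0.553. The ratios of the 2 shRNAs do not overlap in any of the 4, as was so for 7.12% of all genes tested. Since the ratio change picked these 4, this is no further evidence for them. Without the blocks none of them was called, as was the case for every gene tested (62 genes had an unadjusted p under 0.05).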
